A study of Mus musculus with 384 samples.

Results

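The genes described here are 8 that encode precursors of neuropeptides found in the hypothalamus and in minor groups of dopamine (DA) neurons: *Tac1*, *Gal*, *Npy*, *Sst*, *Penk*, *Pdyn*, *Ghrh*, and *Trh*. They were chosen by their symbols, 8 of the 26750 genes with a count in at least 1 cell, and were read in the 209 of 384 cells that had at least 500000 counts on genes. Detection of a gene in a cell meant at least 10 counts, and such a cell is written as *Tac1*+ for example. The cells came from 8 mice carrying DAT-IRES-Cre and the Ai9 reporter, at 24–36 days after birth by the labels. By the labels, 3 of them were female (mice 1, 4, and 6, at 25, 33, and 36 days, 47 cells) and 5 male (mice 2, 3, 5, 7, and 8, at 27, 27, 28, 24, and 24 days, 162 cells). All mice carried both alleles, and there was no untreated or Cre-negative group. Cre was made under control of the dopamine transporter gene *Slc6a3*, so tdTomato marks cells that express this gene or expressed it at an earlier time, and the midbrain was dissected together with the hypothalamus before tdTomato+ cells were sorted and loaded on Fluidigm C1 chips, 1 run for each mouse. The mouse was therefore the replicate, and mouse and run cannot be told apart.

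Neuropeptides are cut from larger precursor proteins in the secretory pathway and released from dense-core vesicles, often by neurons that also release a fast transmitter. In the hypothalamus, DA neurons of the arcuate nucleus use *Th*, the tyrosine hydroxylase gene needed for dopamine synthesis, and many are also GABAergic and use *Gad1*, a gene for the enzyme that makes GABA. *Tac1* encodes the precursor of substance P and neurokinin A, *Gal* that of galanin, *Npy* that of neuropeptide Y, *Sst* that of somatostatin, *Penk* that of the enkephalins, *Pdyn* that of the dynorphins, *Ghrh* that of growth hormone-releasing hormone, and *Trh* that of thyrotropin-releasing hormone.

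Promoter sequence was matched for 7 of the 8 genes in RefSeq (GRCm38.p6), with 9 promoters in all, and *Penk* was not in the table used. The 250 bases before the start site were searched on both strands for the cAMP response element TGACGTCA, for its half-site TGACG (which also lies inside the full element), and for TATAAA. Of 32851 mouse promoter windows of this length, 1.55% held the full element, 17.8% a half-site, and 12.4% TATAAA. Windows for *Tac1*, *Gal*, and *Sst* are shown, with matches to the element or its half-site in capitals, because no cell was positive for more than 1 of these 3 genes and because the windows differ in these motifs. The *Tac1* window is chr6:7554811-7555060 on the plus strand, the *Gal* window chr19:3414545-3414794 on the minus strand, and the *Sst* window chr16:23890845-23891094 on the minus strand.
Tac1: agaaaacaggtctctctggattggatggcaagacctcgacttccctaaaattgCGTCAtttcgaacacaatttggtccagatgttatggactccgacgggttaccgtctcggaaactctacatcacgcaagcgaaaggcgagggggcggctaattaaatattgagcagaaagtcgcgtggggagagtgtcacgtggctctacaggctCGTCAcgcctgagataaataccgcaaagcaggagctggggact
Gal: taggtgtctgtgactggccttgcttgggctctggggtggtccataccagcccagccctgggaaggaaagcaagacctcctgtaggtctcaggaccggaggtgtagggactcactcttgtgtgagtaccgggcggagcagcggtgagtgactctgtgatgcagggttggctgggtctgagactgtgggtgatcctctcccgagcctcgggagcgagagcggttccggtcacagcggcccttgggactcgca
Sst: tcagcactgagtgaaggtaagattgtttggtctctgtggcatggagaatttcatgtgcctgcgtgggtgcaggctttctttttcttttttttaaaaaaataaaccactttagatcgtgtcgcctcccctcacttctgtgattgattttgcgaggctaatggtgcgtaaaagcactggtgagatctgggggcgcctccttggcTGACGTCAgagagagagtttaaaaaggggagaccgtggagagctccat
The *Sst* window held 1 full element, the *Tac1* window 2 half-sites, and the *Gal* window none of the letters searched. A match is a description of the letters and not of a used site, and no match says only that these letters are not in this window.

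At least 1 of the 8 genes was detected in 82 of the 209 cells (39.2%, exact 95% interval 32.6–46.2%), a share that was 63.6% with detection from 1 count and 25.4% from 50, and 6 of the 8 were detected in at least 1 cell. In mice 1 to 8, 61.1%, 41.2%, 15.6%, 50%, 36.8%, 58.8%, 41.7%, and 47.6% of cells were positive, so every mouse held such cells and mouse 3 held the smallest share. Of the positive cells, 69 were positive for 1 peptide gene, 13 for 2, and 0 for 3. These numbers were not set against those that rare genes would give by chance. Total counts in the cells used were 500672–1544820 (median 780484). The median was 771976 counts in cells with a peptide gene and 782287 in those without, and the median number of genes detected was 8748.5 and 9331. The medians of *Th* were 4353 and 6659 CPM (counts scaled to a total of 1000000) and those of *Slc6a3* 1357 and 3805 CPM. Counts are of reads, as no molecular identifiers were named for these libraries, and intervals cover counting error only. Cells of 1 mouse share their source, so intervals over cells do not carry the spread between mice.

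**Figure D1:**
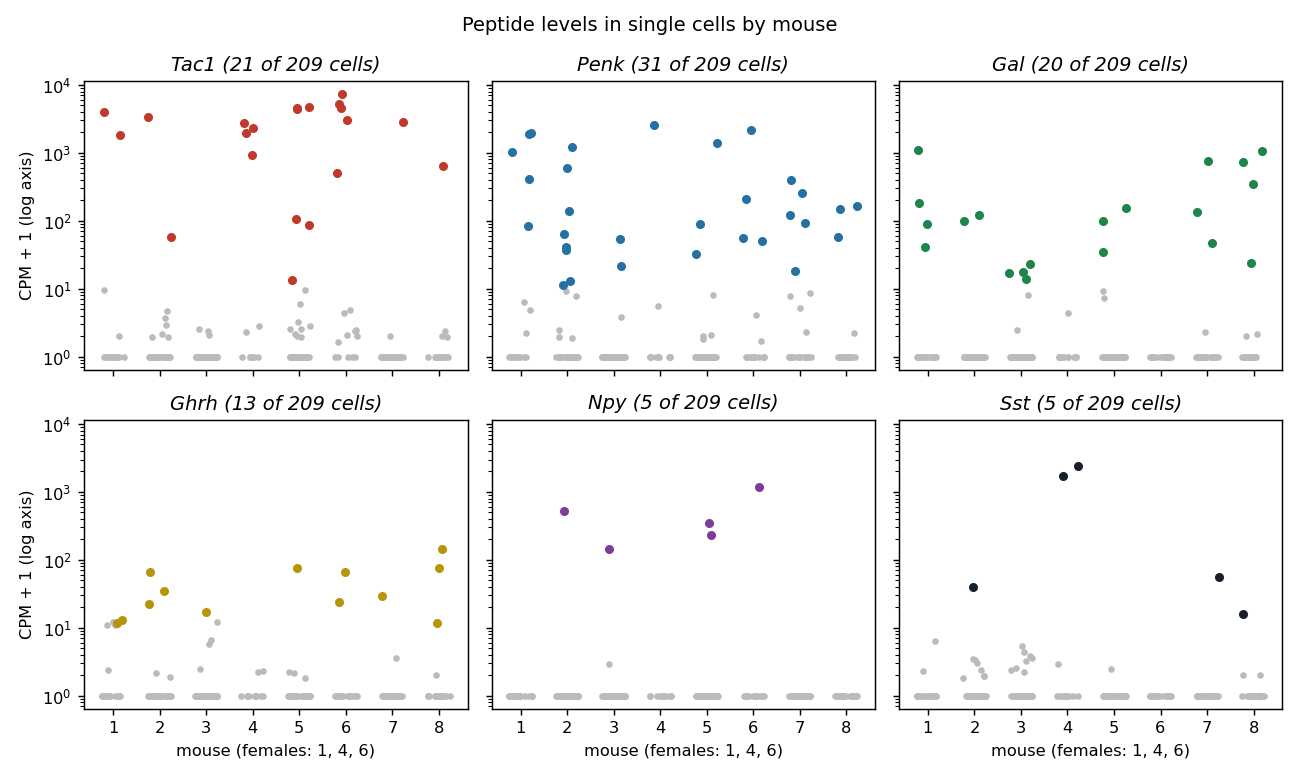
Level of each detected peptide gene in single cells by mouse (CPM plus 1, log axis; 1 point per cell, colored from 10 counts and gray below). Most colored *Tac1* points lie far above the gray ones, at a median of 2792 CPM, while *Ghrh* points lie lower, at a median of 27.9 CPM.

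*Penk* was the most often detected of the genes, in 31 cells (14.8%, 10.3–20.4%) and in all 8 mice, with 5, 8, 2, 1, 3, 4, 5, and 3 positive cells in mice 1 to 8. *Tac1* was detected in 21 cells (10.0%, 6.33–14.9%) of 7 mice, with 2, 2, 0, 4, 6, 5, 1, and 1 cells, and *Gal* in 20 cells (9.57%, 5.94–14.4%) of 6 mice, with 4, 2, 4, 0, 3, 0, 3, and 4 cells. The mice without *Tac1*+ cells (mouse 3) and without *Gal*+ cells (mice 4 and 6) were thus different ones. *Ghrh* followed with 13 cells (6.22%, 3.35–10.4%) of 7 mice. *Npy* and *Sst* were each detected in 5 cells (2.39%, 0.781–5.49%) of 4 mice. As means over the 8 mice, the shares were 16.3% ± 8.75 for *Penk*, 13.1% ± 12.3 for *Tac1*, 9.55% ± 8.09 for *Gal*, 6.88% ± 5.28 for *Ghrh*, 3.57% ± 5.67 for *Sst*, and 2.04% ± 2.47 for *Npy* (SD, n = 8 mice), and neighbors in this order differed by less than their spread.

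*Pdyn* and *Trh* were not detected. *Pdyn* had 1 and 3 counts in 2 cells, and *Trh* had no count in any of the 209 cells. A count of 0 of 209 cells allows a share of up to 1.75% (upper exact limit), so neither gene can be said to be absent from the tissue.

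The genes differed more in level than in the number of cells. In positive cells, the lowest, median, and highest level was 12.5, 2792, and 7324 CPM for *Tac1*, 142, 353, and 1176 CPM for *Npy*, and 10.3, 121, and 2535 CPM for *Penk*. *Tac1* thus had by far the highest median among positive cells. The corresponding values were 13.1, 97.1, and 1092 CPM for *Gal*, 14.9, 54.8, and 2418 CPM for *Sst*, and 10.8, 27.9, and 143 CPM for *Ghrh*. The median *Ghrh*+ cell held 17 counts, close to the limit of detection. Per kilobase of exon and averaged over mice, *Tac1* stood at 306 ± 364, *Penk* at 77.3 ± 77.8, *Sst* at 64.9 ± 180, *Gal* at 34.2 ± 45.7, *Npy* at 19.5 ± 35.2, and *Ghrh* at 5.12 ± 4.98 CPM per kilobase (SD, n = 8 mice), an order in which no neighbors differed beyond their spread.

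Low counts below the limit were frequent for some of the genes. *Tac1* had 1–9 counts in 33 cells, *Sst* and *Penk* in 21 each, *Ghrh* in 17, *Gal* in 8, and *Npy* in 1. For *Sst* these cells were 17 of 101 sequenced in lane 1 and 4 of 108 in lane 2, and for *Tac1* 11 and 22. The part of the lane in these low counts was not tested.

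*Tac1*, on chromosome 6 (7555061–7562978, GRCm38.p6), was the peptide gene that passed the test in the comparison by *Th*. The 209 cells were divided at 1000 CPM of *Th*, and the nearest cells on either side of this limit had 756.9 and 1083 CPM. Of the 28 *Th*-poor cells, 17 were *Tac1*+ (60.7%), against 4 of the 181 *Th*-rich cells (2.21%). Summed per mouse, the *Th*-poor cells of mice 1, 2, 4, 5, and 6 held 983.7, 956.2, 2037, 3744, and 4942 CPM of *Tac1*, and the *Th*-rich cells of the same mice held 0.858, 0.354, 0.371, 3.01, and 33.5 CPM. *Tac1* was higher in the *Th*-poor cells of 5 of 5 mice, with no overlap of the classes. *Tac1* rose by 8.40 ± 1.42 (log2, SE) with an adjusted p of 0.0324 in edgeR, and was 1 of the 0.115% of 11323 tested genes that were higher in *Th*-poor cells past the threshold (13 genes, with 35 lower and 0.424% called in either direction). DESeq2 called 206 genes higher and 160 lower (3.23% in all), *Tac1* among them (8.48, adjusted p = 6.7e-10). Values did not overlap, with *Th*-poor cells higher, in 0.839% of all genes tested. With the mouse as a replicate block the change was 10.17 (adjusted p = 0.0038), in a fit that called 0.0883% of genes. Over the fits that left out 1 mouse the change was 8.01–10.65, and the adjusted p rose to 0.0527 without mouse 2, 0.0922 without mouse 4, and 0.132 without mouse 5.

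The other peptide genes did not share this pattern past the threshold. For *Penk*, the *Th*-poor cells of mice 1, 2, 4, 5, and 6 held 792.7, 41.2, 676.6, 0.336, and 624.8 CPM and their *Th*-rich cells 8.46, 60.8, 0, 63.9, and 33.8 CPM. The *Th*-poor cells were higher in the 3 females and lower in the 2 males, and the change of 3.74 ± 1.42 did not pass (adjusted p = 0.432). *Ghrh* differed by -0.56 ± 1.14 (adjusted p = 0.940). *Npy* and *Sst* had no count in the 24 *Th*-poor cells of these mice and were detected in 4 and 3 of the 95 *Th*-rich cells (4.21% and 3.16%). Both were under the filter on low counts and were not tested, and with 0 of 24 cells (upper exact limit 14.2%) a difference was not detectable at this number of cells. *Gal* was not tested here either. In all, 23 of the 28 *Th*-poor cells (82.1%, 63.1–93.9%) and 59 of the 181 *Th*-rich cells (32.6%) held a peptide gene. Over all 8 mice *Npy* and *Sst* were each detected in 5 of the 181 *Th*-rich cells (2.76%) and in 0 of the 28 *Th*-poor cells (upper exact limit 12.3%).

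Other genes of DA neurons moved with *Th*. Of 11 midbrain DA neuron markers other than *Th*, 4 fell in *Th*-poor cells (as did 0.309% of all genes tested) and 0 rose in edgeR, against 6 and 0 in DESeq2, with a median over the list of -2.15 against 0.10 over all genes tested. The 4 were *Slc6a3* (-2.86, adjusted p = 5.3e-04), the vesicular monoamine transporter gene *Slc18a2* (-2.15, adjusted p = 0.0032), the retinaldehyde dehydrogenase gene *Aldh1a1* (-5.89, adjusted p = 0.0365), and the dopamine receptor gene *Drd2* (-5.96, adjusted p = 0.0077). With the replicate block the *Aldh1a1* call was lost (adjusted p = 0.0762). The *Th*-poor class also held cells with almost no *Slc6a3*, at 1.47 and 1.69 CPM in mouse 1 and 9.29 CPM in mouse 2. Another *Th*-poor cell of mouse 1 held astrocyte markers that summed to 3937 CPM. The part of these cells in the changes was not tested. *Slc17a6*, which encodes a vesicular glutamate transporter, stood at 653.7 ± 508.3 CPM in *Th*-poor and 134.0 ± 29.7 CPM in *Th*-rich cells (SD, n = 5 mice). Its change did not pass in edgeR (2.32 ± 0.48 in log2, SE, adjusted p = 0.0722) and passed in DESeq2 (2.40, adjusted p = 1.5e-04).

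**Figure D2:**
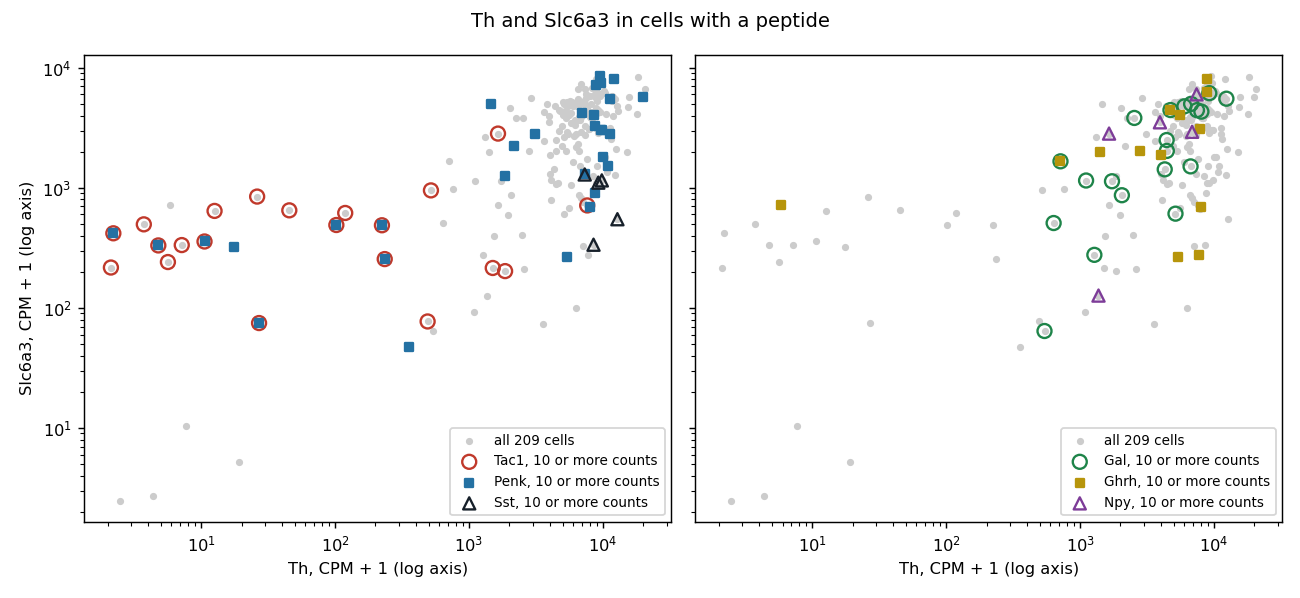
*Th* against *Slc6a3* in single cells (CPM plus 1, log axes; 1 point per cell, 209 cells), with cells positive for *Tac1*, *Gal*, *Penk*, *Sst*, *Npy*, or *Ghrh* marked. Most *Tac1*+ cells lie at low *Th*, with 17 of 21 under 1000 CPM, while all 5 *Sst*+ cells lie at 7298 CPM or above.

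*Tac1*+ cells were divided by level at 800 CPM, a limit set after the values had been seen. The nearest cells on either side had 634.4 and 939.6 CPM, so the levels themselves leave no wide gap there. In the 15 cells above 800 CPM, from 6 mice, *Tac1* was 939.6–7324 CPM, *Th* 1.12–233.5 CPM (median 11.6), and *Slc6a3* 73.8–844.8 CPM (median 417). All 15 of these cells were positive for *Slc6a3*, and 8 of the 15 for *Th*. All 15 held *Slc17a6* (213–1886 CPM), and *Gad1* and *Gad2*, the genes for both forms of glutamate decarboxylase, were under 10 counts in all 15. *Slc32a1*, the vesicular GABA transporter gene, was detected in 2 of the 15, at up to 144.7 CPM. The 6 cells below 800 CPM, from 4 mice, had *Th* at 489–7618 CPM, *Slc17a6* at 229–1062 CPM, and *Gad2* at 2.90–4615 CPM, with 5 of the 6 positive for *Gad2* and none for *Gad1* or *Penk*. *Irx6*, an Iroquois homeobox gene, was detected in 11 of the 15 cells of the first group and in 0 of the 6 of the second. *Irx6* was named because its level runs like that of *Tac1* over these same cells, as given below. This contrast therefore gives no separate support for the division.

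Over the 209 cells and among 12105 genes, 4933436C20Rik (Spearman rho = 0.54) and *Irx6* (0.51) were among the 3 genes whose levels ran most like that of *Tac1*. 4933436C20Rik was detected in 12 of 21 *Tac1*+ and 0 of 188 other cells, and *Irx6* in 11 and 0. The rho of *Tac1* was -0.37 with *Th*, -0.22 with *Slc6a3*, -0.08 with *Gad1*, and 0.31 with *Slc17a6*. These are descriptions over cells that share mice, libraries, and depth.

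Summed per mouse, *Tac1*+ and *Tac1*- cells could be compared in mice 4, 5, and 6 (15 and 52 cells). Besides *Tac1* itself, which defined the classes, 10 genes passed the threshold, and 0.0953% of 11538 genes were called. The 4 that rose were *Cd36*, a fatty acid transporter gene (12.03), 4933436C20Rik (10.78), *Nxph1*, which encodes the neurexin ligand neurexophilin 1 (5.43), and *Fam81a* (3.96). The 6 that fell were *Aldh1a7* (-14.2), *Anxa1* (-11.6), *S100a10* (-8.84), *Aldh1a1* (-8.21), *Cplx1* (-4.50), and *Serpine2* (-3.57). The 4 that rose, and of the others *Aldh1a7*, *Anxa1*, *Aldh1a1*, and *Cplx1*, were also called in *Th*-poor cells in the same direction. Every *Th*-poor cell of mice 4, 5, and 6 was *Tac1*+, so the comparisons by *Th* and by *Tac1* largely divide the same cells there. These genes were named after their values had been seen, except *Aldh1a1*, which was 1 of 12 DA neuron markers and the only one of them called by edgeR, while DESeq2 called 3. Without mouse 4, 5, or 6 the 10 genes became 0, 5, and 1. With the replicate block 3 genes other than *Tac1* were called in a fit with 0.0347% of genes past the threshold. Of the 14 hypothalamic regional factors, all but the prolactin receptor gene *Prlr* were under 10 counts in every *Tac1*+ cell, and *Prlr* was detected in 10 of the 21. All 5 astrocyte and all 4 endothelial markers were at 0 in the 21 *Tac1*+ cells. Of 5 microglia markers, 1 was detected, *P2ry12* in 1 of the 21 cells at 58.0 CPM, against 3 of the 127 cells without a peptide gene. *Mbp* was the only oligodendrocyte marker detected in them, in 13 cells at up to 160.4 CPM, and the summed oligodendrocyte markers had a median of 26.7 CPM in *Tac1*+ cells and of 1.66 CPM in cells without a peptide gene, whose part in the result was not tested.

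The peptide genes in *Tac1*+ cells were next compared. *Penk* stood at 3.62 above the level of *Tac1*- cells (log2) without passing (adjusted p = 0.663), and *Npy* at -1.55. *Gal* and *Sst* had no count in *Tac1*+ cells of these mice. Among the *Tac1*- cells, 175 of the 177 *Gal* counts came from mouse 5, and 3135 *Sst* counts came from mouse 4 and 1 from the other mice, so no fold is given for either. Another member of the list of 12 other hypothalamic peptides, the PACAP gene *Adcyap1*, was at 340.4 ± 272.0 CPM in *Tac1*+ and 69.9 ± 48.5 CPM in *Tac1*- cells (SD, n = 3 mice). This change of 2.25 ± 0.71 did not pass in edgeR (adjusted p = 0.339) and passed in DESeq2 (adjusted p = 0.0406), which called 418 genes in all (3.62%).

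*Gal*, on chromosome 19 (3409915–3414544), was the peptide gene most often found with *Gad1*. *Gad1* was detected in 15 of the 209 cells, and 10 of these were *Gal*+ (66.7%, 38.4–88.2%), against 10 of 194 *Gad1*- cells (5.15%). In mice 1, 7, and 8, the 3 with at least 3 cells in each class (13 and 50 cells), summed *Gal* was 238.6, 297.6, and 471.6 CPM in *Gad1*+ cells and 0, 2.28, and 1.53 CPM in *Gad1*- cells. The classes did not overlap, and *Gad1*+ cells were higher in 3 of 3 mice, as were 5.09% of the 12038 genes tested. The change of 7.98 did not pass in edgeR (adjusted p = 0.271), which called 0 genes of 12038 (0% of them), with 857 at an unadjusted p under 0.05. DESeq2 called 298 genes (2.48%), among them *Gal* (8.12, adjusted p = 7.9e-17).

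*Tac1* ran the other way in the same cells, without overlap of the classes, as held with *Gad1*+ cells lower for 10.8% of genes. It stood at 1.502, 0, and 0.287 CPM in *Gad1*+ and at 516.7, 120.4, and 32.8 CPM in *Gad1*- cells of mice 1, 7, and 8, a change of -8.38 with an adjusted p of 0.305 in edgeR and of 6.3e-09 in DESeq2. *Tac1* entered these tests through the *Gad1*- cells, and the size of the change and the DESeq2 call rest on a class near 0. The direction rests on the limit for *Gad1*, since with *Gad1*+ cells taken from 1 count the change was 0.18 (adjusted p = 0.999 in edgeR). None of the 15 *Gad1*+ cells was *Tac1*+ (upper exact limit 21.8%). The differences of *Penk* (-2.05) and *Ghrh* (0.72, adjusted p = 0.985) did not pass either. The 6 hypothalamic regional factors that were tested all had higher fitted values in *Gad1*+ cells, with a median of 4.88 against -0.04 over all genes, but 0 of the 6 passed in edgeR and 4 in DESeq2. Of 5 oligodendrocyte markers, the 2 tested also had higher fitted values in *Gad1*+ cells (median 5.79). Neither passed in edgeR, and DESeq2 called *Mbp* (4.90, adjusted p = 0.0020). The summed oligodendrocyte markers were at 0–22796 CPM in the 20 *Gal*+ cells (median 3.65), and their part in these differences was not tested.

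**Figure D3:**
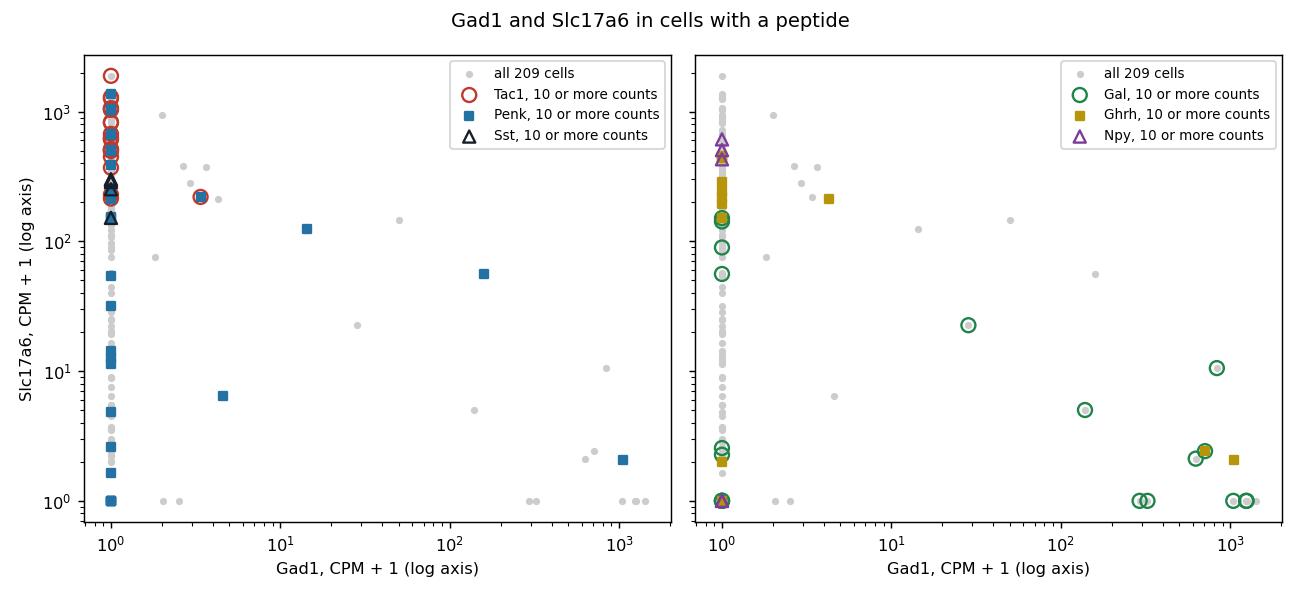
*Gad1* against *Slc17a6* in single cells (CPM plus 1, log axes; 1 point per cell, 209 cells), with peptide-positive cells marked. *Gal*+ cells make up 10 of the 15 cells positive for *Gad1*, and no *Tac1*+ cell is among them.

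The 20 *Gal*+ cells held 10 with and 10 without *Gad1*. With *Gad1*, *Gal* was at 28–769 counts (median 205), *Gad1* at 27.5–1248 CPM, *Gad2* at 17.0–1199 CPM, and *Slc32a1* at 0–8.03 CPM, under 10 counts in all 10. Without *Gad1*, *Gal* was at 11–94 counts (median 21.5). The median of *Th* was 1502 CPM in the former and 6707 CPM in the latter, and that of *Slc6a3* 1000 and 4439 CPM. Every *Gal*+ cell was positive for *Th*, at 541.1 CPM or above, unlike the *Tac1*+ cells. Of the 14 hypothalamic regional factors, 8 reached 10 counts in a *Gal*+ cell and 4 had no count in any. At least 1 was detected in 11 of the 20 *Gal*+ cells and in 32 of the 127 cells without a peptide gene, with *Prlr* in 11 and 29 of these. It was also so in 17 of 31 *Penk*+, 10 of 21 *Tac1*+, 4 of 5 *Sst*+, 5 of 13 *Ghrh*+, and 1 of 5 *Npy*+ cells. Among the factors named here after their values had been seen, *Six6* was detected in 9 of the 20, *Six3* in 7, *Dlx5* in 5, and *Dlx1* in 4, against 3, 4, 1, and 2 of the 127 cells. *Isl1* was detected in 1 cell of each group. *Cartpt*, which encodes the CART peptide, was detected in 9 of the 20 *Gal*+ cells and in 15 of those 127.

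The genes with levels most like *Gal* over the 209 cells were *Fam159b* (rho = 0.49, in 8 of 20 *Gal*+ and 4 of 189 other cells), *Msn*, which encodes moesin (0.36), and the endopeptidase gene *Ecel1* (0.35). The rho of *Gal* with *Gad1* was 0.34, that with *Th* -0.09, and that with *Slc6a3* -0.02. Between *Gal*+ and *Gal*- cells of mice 1, 3, 5, 7, and 8 (18 and 128 cells), edgeR called *Gal* alone (0.00841% of 11897 genes, 608 at an unadjusted p under 0.05) and DESeq2 called 85 (0.714%). *Tac1* (-8.18, adjusted p = 0.124) and *Penk* (-7.34, adjusted p = 0.128) did not pass without the block and passed with the mouse as a replicate block (adjusted p = 0.0425 for both, 0.0252% of genes called). Both were also called by DESeq2 (adjusted p = 0.0012 and 1.8e-05). In *Gal*+ cells *Tac1* had at most 6 counts and *Penk* at most 4, so both entered the tests through the *Gal*- cells. The sizes of these changes and the calls rest on a class near 0. *Gad1* differed by 3.96 (adjusted p = 0.970) and *Ghrh* by 0.83.

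*Penk*, on chromosome 4 (4133536–4138815), was found in cells of both kinds. Of its 31 positive cells, 7 were *Tac1*+ and 24 were not. In the 24 without *Tac1*, *Th* was at 16.5–19811 CPM (median 8753), with medians of 2919 CPM for *Slc6a3* and 4700 CPM for *Aldh1a1*, and *Penk* itself at 11–1778 counts. Astrocyte markers were detected in 2 of the 24, both from mouse 1 and both *Th*-poor. In 1 of these, with 583 counts of *Penk* and *Th* at 355.5 CPM, 3 of the 5 markers were detected and summed to 3937 CPM, and in the other, with 245 counts and *Th* at 16.5 CPM, 1 marker was at 33.1 CPM. Their part in the values of *Penk* was not tested, and 8 of the 127 cells without a peptide gene also held an astrocyte marker. Between *Penk*+ and *Penk*- cells of mice 1, 2, 5, 6, 7, and 8 (28 and 124 cells), edgeR called *Penk* alone (0.00818% of 12226 genes, 478 at an unadjusted p under 0.05) and DESeq2 called 26 (0.213%). *Th* (0.21), *Slc6a3* (0.09), and *Tac1* (1.46, adjusted p = 0.997) did not pass. *Gal* had no count in the 28 *Penk*+ cells of these 6 mice (upper exact limit 12.3%) and was detected in 16 of the 124 *Penk*- cells (12.9%, 7.56–20.1%), intervals that overlap. The genes most like *Penk* were *Gaa*, the lysosomal alpha-glucosidase gene (rho = 0.32), *Tmem132c* (0.30, in 14 of 31 *Penk*+ and 29 of 178 other cells), and *Tmem130* (0.30), weaker likeness than that found for *Tac1* or *Gal*.

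*Sst*+ and *Npy*+ cells were few and are given one by one. The 5 *Sst*+ cells held 1853 and 1281 counts (mouse 4), 46 (mouse 7), 38 (mouse 2), and 10 (mouse 8), so that the 2 cells of mouse 4 held most of the *Sst* counts in the cells used. Their *Th* was 7298–12803 CPM and their *Slc6a3* 335.0–1291 CPM, all 5 held *Slc17a6* (150.7–300.1 CPM), and none had a count of *Gad1*. The 5 *Npy*+ cells held 847 counts (mouse 6), 378 (mouse 2), 284 and 157 (mouse 5), and 113 (mouse 3). *Th* was 1370–7404 CPM in these, *Slc17a6* was detected in 3 of the 5, and *Gad1* had no count in any.

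*Ghrh*+ cells did not form a group by *Th*, *Slc6a3*, or *Gad1*. In the 13 cells *Th* was 4.87–8877 CPM (median 5380), *Slc17a6* was detected in 9 and *Gad1* in 2. The genes most like it, *Bcam* (rho = 0.36), *Ccdc109b* (0.34), and the LIM homeobox gene *Lhx1* (0.32), were each detected in 3 of the 13 cells. They were detected in 10, 7, and 11 of the 196 other cells.

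**Figure D4:**
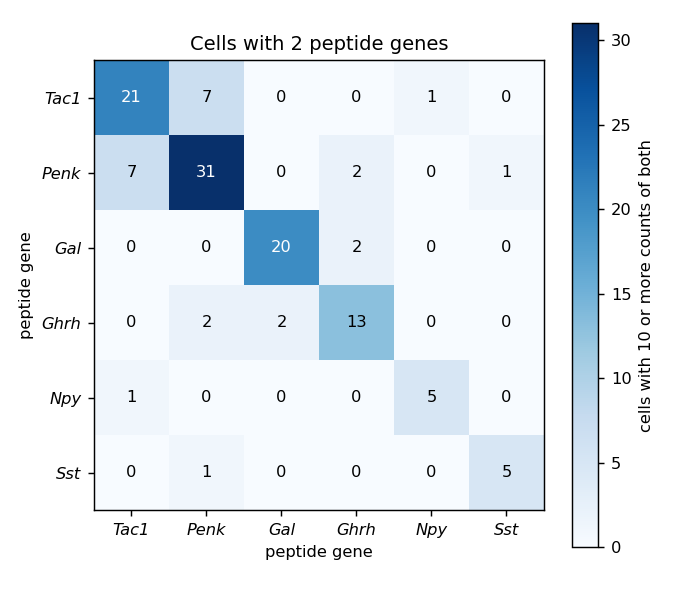
Cells positive for each peptide gene (diagonal) and for each pair of them (off the diagonal), in number of cells. *Tac1* with *Penk* is the most frequent pair, with 7 cells.

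Of the 28 pairs among the 8 genes, 15 had both members detected, and 5 of these shared a cell. *Tac1* and *Penk* were found together in 7 cells of 5 mice, which is 33.3% of *Tac1*+ and 22.6% of *Penk*+ cells. In these 7 cells *Tac1* was at 1128–4828 counts and *Penk* at 42–2317 counts, all 7 were among the 15 cells with high *Tac1*, and *Th* was at 1.21–233.5 CPM. *Gal* and *Ghrh* shared 2 cells (10% and 15.4%), *Penk* and *Ghrh* 2 (6.45% and 15.4%), *Tac1* and *Npy* 1, and *Sst* and *Penk* 1. *Tac1* and *Gal* shared none of their 21 and 20 cells, and *Gal* and *Penk* none of their 20 and 31. Rare genes share few cells by chance, and no expected number of shared cells was computed. Empty pairs therefore do not show exclusion. In *Gal*+ cells *Tac1* reached at most 6 counts and *Penk* at most 4. Chambers in which 2 cells were seen had been left out by the authors, and no further search for doublets was made here.

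Cells with little *Slc6a3* were fewer than the design required. Under 100 CPM there were 11 cells, of which 4 held a peptide gene (*Tac1* in 2, *Penk* in 2, and *Gal* in 1), or 36.4%. Above that limit, 78 of 198 cells did (39.4%). Only 1 mouse had at least 3 cells below it, so no test was made. At 300 CPM, an alternative, 21 cells fell below, and 13 held a peptide gene (*Tac1* 7, *Penk* 4, *Gal* 2, *Ghrh* 2, *Npy* 1), or 61.9%. Above this limit, 69 of 188 cells did (36.7%). In mice 1, 2, 5, 6, and 7 none of the 4 peptide genes tested passed in edgeR. Summed *Tac1* was 0, 0.455, 22.4, 2751, and 918.3 CPM below that limit and 445.0, 134.4, 383.5, 976.4, and 0.0605 CPM above it, so it was higher in 2 mice and lower in 3 (0.99 ± 1.82, adjusted p = 0.947). Of the 11788 genes tested, 0.00848% were called, namely *Slc6a3*, which defined the classes, and 848 had an unadjusted p under 0.05.

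**Figure D5:**
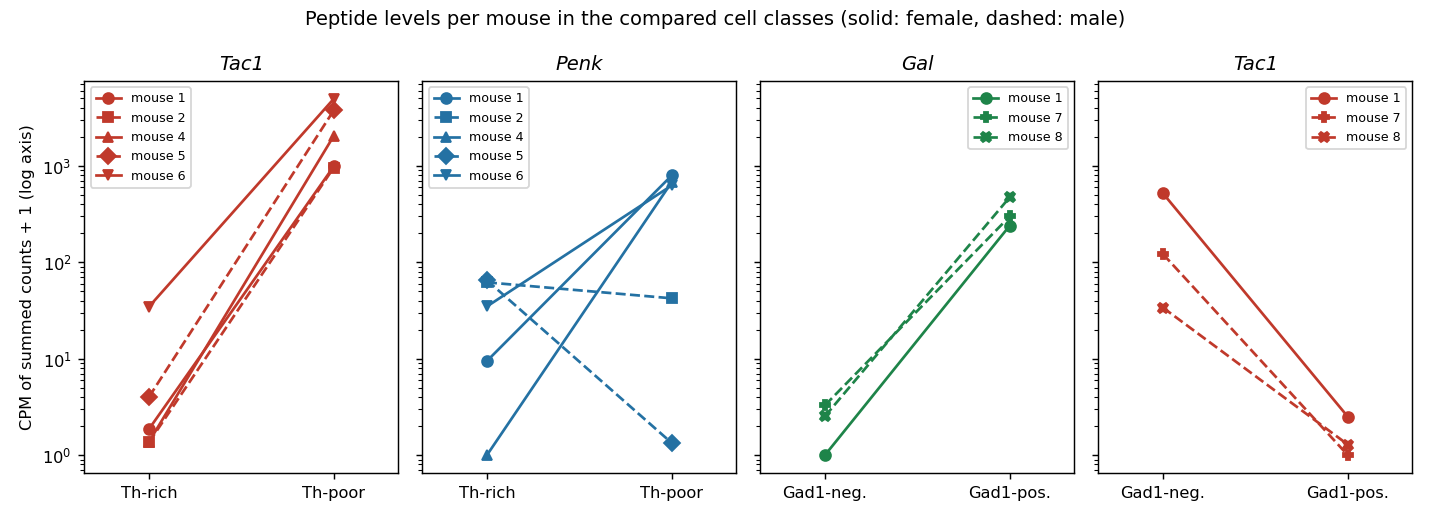
Summed levels of peptide genes per mouse (CPM plus 1, log axis) in classes of cells divided by *Th* or by *Gad1*, with a line joining the classes of a mouse. *Tac1* is higher in *Th*-poor cells of all 5 mice, and *Gal* is higher in *Gad1*+ cells of all 3.

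The relation was also tested gene by gene over mice with an exact two-sided sign-flip permutation test of the mean log2(CPM + 1) in positive minus negative cells, in 9 tests. For *Tac1*, *Th* differed by -7.32 ± 3.72 and *Slc6a3* by -2.55 ± 0.56 (SD), both lower in 3 of 3 mice, with an exact p of 0.25 for both, the smallest that 3 mice allow, and 0.5625 after adjustment. For *Gal*, *Gad1* differed by 4.27 ± 2.96 and was higher in 4 of 5 mice (exact p = 0.125, adjusted 0.5625, smallest possible 0.0625), while *Th* (-0.12 ± 1.12, exact p = 0.8125) and *Slc6a3* (0.04 ± 0.99, exact p = 0.9375) differed by less than the spread. For *Penk*, with 6 mice and a smallest possible exact p of 0.03125, none of *Th* (-0.75 ± 1.62, p = 0.3125), *Slc6a3* (-0.00 ± 0.44, p = 1), or *Gad1* (-0.45 ± 1.13, p = 0.3125) differed beyond the spread.

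Between the sexes, 0 of the 6 peptide genes tested passed. The summed values of *Penk* were nevertheless apart, while those of *Tac1* almost met. Summed *Penk* was 291.4, 246.9, and 187.3 CPM in female mice 1, 4, and 6 and 58.3, 1.46, 58.0, 35.5, and 16.7 CPM in male mice 2, 3, 5, 7, and 8. *Tac1* was 355.4, 743.7, and 1309 CPM in the females and 124.3, 0.0914, 352.2, 104.5, and 26.9 CPM in the males. Neither sum overlapped between the sexes, as held with females higher for 2.47% of the 15529 genes tested. For *Tac1* the nearest values were 355.4 CPM in mouse 1 and 352.2 CPM in mouse 5. The shares of positive cells did overlap. *Penk* was detected in 27.8%, 8.33%, and 23.5% of cells in the females and in 4.44–23.5% in the males. *Tac1* was detected in 11.1% of cells in female mouse 1 and in 15.8% in male mouse 5. The only *Penk*+ cell of mouse 4 held 2096 counts. Relative to females, *Penk* differed by -2.84 ± 0.78 (adjusted p = 0.473) and *Tac1* by -2.77 ± 1.26 (adjusted p = 0.621), while *Gal* differed by 0.23, *Ghrh* by 0.45, *Npy* by -1.70, and *Sst* by -6.92, and all 4 of these turned direction when 1 mouse or another was left out. EdgeR called 5 genes (0.0322%), *Xist* and 4 genes of the Y chromosome, which matched the labels, and 1261 had an unadjusted p under 0.05. The *Th*-poor share of cells moved with sex: 7 of 18, 4 of 12, and 4 of 17 cells in the females and 5 of 34, 1 of 45, 4 of 38, 2 of 24, and 1 of 21 in the males. In *Th*-rich cells alone, a comparison chosen after seeing the data, *Penk* differed by 1.17 and *Tac1* by -0.95 from females to males. The females were 25, 33, and 36 days old and the males 24–28 days, so 1 female fell within the ages of the males. The females were all run on the same C1 machine as male mice 2 and 7, and male mice 3, 5, and 8 on another. Sex and machine thus run partly together, and the part of the machine was not tested. With age as a covariate, a fit added after seeing the data, *Penk* differed by -2.84 (adjusted p = 0.302) and *Tac1* by -1.57 (adjusted p = 0.685).

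Genes that process, store, or receive these peptides were called by edgeR in none of the comparisons fitted, in which 0–0.424% of all genes were called. Of 14 genes for the maturation and storage of peptides, such as the convertase genes *Pcsk1* and *Pcsk2*, all 14 were tested in every comparison and 0 passed. Of the 18 receptor genes for the 8 peptides, 7–11 were tested and 0 passed, and of the 12 other hypothalamic peptides 3–6 were tested and 0 passed. At these shares few or no calls among so few genes are what the background gives. DESeq2, which called 1.22% of genes between the sexes and up to 3.62% in the other comparisons, called *Pcsk2* lower in *Gad1*+ cells, *Adcyap1* higher in *Tac1*+ cells, and in *Th*-poor cells the chromogranin gene *Chgb*, the somatostatin receptor gene *Sstr2*, and *Adcyap1* higher and the kappa opioid receptor gene *Oprk1* lower. *Adcyap1* (65 of 209 cells), *Cartpt* (41), and *Pomc* (36) were the most often detected of the 12 other peptides.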

How the data were processed

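Counts of single cells were read from 1 table of 47082 entries and 384 cells. Per the methods and the labels, the authors used Trimmomatic 0.3.2 to drop poor reads, TopHat2 2.1.1 for alignment to GRCm38, and featureCounts 1.5.0-p3 for counts by RefSeq gene, where a read shared by several genes was not counted. These raw counts were deposited as they were, and 5721 entries held no value in any cell and were left out. Transgene entries held 0.00324% of counts.

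Cells with at least 500000 counts were used, 209 in all (12–45 per mouse). The members and lists were chosen with earlier results of these data known. Genes were named as members, as *Th*, *Slc6a3*, or *Gad1*, as list genes past the threshold, or as the 3 genes most like a member. Other genes, such as *Slc17a6*, *Gad2*, *Slc32a1*, *Prlr*, *Mbp*, *Adcyap1*, *Cartpt*, *Pomc*, and the regional factors, were taken from the lists or from the tests after their values were seen. Some genes that this rule or the lists include are not reported here.

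Each mouse gave 1 sum of counts, or 1 for each class of cells if both classes held 3 cells or more, and the sums were tested over all genes with edgeR 4.0.16 in R 4.3.3 (filterByExpr, TMM, quasi-likelihood, Benjamini-Hochberg, threshold 0.05). The 2 classes of a mouse come from the same animal. The correlation of their deviations from the class means was 0.0205–0.380 over 27 pairs, 10 of them over 0.1, and the mouse as a replicate block was an alternative. DESeq2 1.42.0 was the other tool. Python 3.11.15, pandas 2.3.3, and scipy 1.17.1 were used for the rest, with a pseudocount of 1 on log scales. Data of 11570 genes were simulated in the design of the *Th* comparison. In these, edgeR recovered 100% of genes changed 16-fold and 41.7% of those changed 4-fold, with 4 false calls. DESeq2 recovered 98.9% and 57.3%, with 38 false calls. Every simulated gene had the same set dispersion, and the classes of a mouse were drawn separately. These shares therefore do not give the power for the peptide genes, whose own spread between mice was not simulated. Samples are named by mouse, and sex and age follow the sample labels, from which the description of the series differs in the number of females and in the range of ages.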

Additional observations from a re-analysis of the deposited data

Results flagged for a closer look

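In groups of 4 to 10 mice, the highest or lowest value stood apart from the others by Dixon's criterion for 13 of the 51 groups tested. A rate of about 1 in 20 groups by chance holds for normal and independent values. These values are skewed, are often near 0, and share mice, so the number flagged cannot be read against that rate. *Tac1* in *Th*-rich cells was 33.5 CPM in mouse 6 and 0.354–3.01 CPM in the other 4 mice. With cells divided at 300 CPM of *Slc6a3*, *Gal* below the limit was 297.6 CPM in mouse 7 and at most 28.2 CPM elsewhere. Above it, *Gal* was 93.5 CPM in mouse 1 and at most 8.34 CPM elsewhere. *Ghrh* below the limit was 27.8 CPM in mouse 2 and at most 8.01 CPM elsewhere, and *Gad1* above it 228.8 CPM in mouse 1 and at most 6.95 CPM elsewhere.

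In *Gal*+ cells, *Tac1* and *Penk* were each 2.27 CPM in mouse 1 and at most 0.593 and 0.425 CPM elsewhere. In *Gal*- cells, *Penk* was 367.1 CPM in mouse 1 and at most 61.4 CPM elsewhere, and *Gad1* 113.7 and at most 3.54 CPM. In *Penk*- cells, *Tac1* was 1149 CPM in mouse 6 and at most 380.0 CPM elsewhere, and *Gad1* 349.7 CPM in mouse 1 and at most 128.3 CPM elsewhere. In *Penk*+ cells, *Ghrh* was 10.2 CPM in mouse 2 and at most 1.78 CPM elsewhere, and *Gad1* 127.5 and at most 29.4 CPM. Mouse 1 held 6 of the 15 *Gad1*+ cells.

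*Penk* differed in direction between the sexes in the comparison by *Th*. The mean difference of *Th*-poor minus *Th*-rich cells was 683.9 CPM in 3 females and -41.6 CPM in 2 males, 725.5 CPM apart, with every female above 0 and every male below it. This difference was not tested.

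The 175 cells under 500000 counts, which entered no comparison, also held these genes. *Tac1* reached 1666 counts and was detected in 14 of them, *Penk* reached 126 (4 cells), and *Ghrh* 119 (2 cells). *Npy* reached 324, *Sst* 103, and *Gal* 37 counts, in 1 cell each. *Trh*, with no count in the cells used, reached 22 counts in 1 of these cells.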

How the results depend on the processing

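Of 533 values under alternatives, those that answer a comparison stayed alike in 114, moved in 21, and turned direction in 12. Those of single genes kept direction and side of the threshold in 351, passed it anew in 9, lost it in 3 (*Tac1* by *Th*, without mouse 2, 4, or 5), and turned direction in 23. Cells with a peptide gene were 63.6% with detection from 1 count and 25.4% from 50. DESeq2 called 2 peptide genes by *Gad1* in place of 0. Other genes called in *Tac1*+ cells were 10, and 417 by DESeq2, 27 without a filter on low counts, 85 with cells of at least 100000 counts, 3 with the mouse as a replicate block, and 0–5 without 1 mouse. For *Gal* they were 0, and 84 by DESeq2, 1 without a filter, 2 with the replicate block, and 0–2 without 1 mouse. For *Penk* they were 0, and 25 by DESeq2, 4 with cells of at least 100000 counts, 1 without *Tac1*+ cells (chosen after seeing the data), and 0–1 without 1 mouse. Peptide genes called by *Th* were 0–1 without 1 mouse. The paired fits changed no call of a peptide gene other than those given beside the results.

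Directions turned for differences that had not passed in edgeR or over mice, of which *Tac1* by *Gad1* had passed in DESeq2. Between the sexes in *Th*-rich cells alone (chosen after seeing the data), *Penk* was 1.17, *Ghrh* -0.13, *Th* -0.15, and *Slc6a3* -0.017, and with age as a covariate (likewise) *Gal* was -1.37 and *Npy* 23.7. By *Gad1*, *Ghrh* was -0.11 with the replicate block, and *Tac1* 0.18 and *Penk* 0.45 with *Gad1* from 1 count. By *Th*, *Ghrh* was 0.81 with cells of at least 100000 counts and 0.34 with a limit of 3000 CPM. *Slc6a3* was -0.41 in *Penk*+ cells from 50 counts. In the tests over mice, *Slc6a3* by *Gal* was -0.029 with a pseudocount of 10, and with cells of at least 100000 counts *Th* by *Gal* was 0.58, *Th* by *Penk* 0.033, and *Slc6a3* by *Penk* 0.046. Without 1 mouse, the sex differences were -2.56 to 12.5 for *Gad1*, -0.83 to 8.13 for *Gal*, -7.51 to 2.47 for *Sst*, -0.42 to 0.97 for *Ghrh*, and -2.27 to 10.0 for *Npy*. *Ghrh* was -1.62 to 0.093 by *Th* and -3.18 to 0.023 by *Penk*, and *Npy* -1.56 to 1.69 by *Tac1*. Over mice, *Th* by *Gal* was -0.57 to 0.15, *Slc6a3* by *Gal* -0.30 to 0.35, and *Slc6a3* by *Penk* -0.14 to 0.10. The cause was not tested.

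Classes by *Gad1* or *Gal* from 50 counts left 2 mice and were not fitted, nor were the other alternatives for *Slc6a3*, for which the limit of 100 CPM left 1 mouse. Detection from 10 counts sets the limit for *Ghrh*, whose median count was 17.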
